A study of Mus musculus with 2 samples.

Results

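The genes described here encode the respiratory chain of mitochondria from the nuclear genome. They are the mm10 protein-coding genes whose symbol starts with Nduf, Uqcr, Atp5 or Cox followed by a digit, together with Sdha, Sdhb, Sdhc, Sdhd and Cycs. The rule takes 106 of 21887 protein-coding genes: 47 of complex I, 4 of complex II, 8 of complex III, 29 of complex IV, 17 of complex V and the gene of cytochrome c. Chromatin accessibility at these genes was read from ATAC-seq peaks that touched 1 kb on either side of either end of the gene, called gene-end peaks below. The rule reads gene names only.

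The respiratory chain passes electrons from NADH and succinate to oxygen and pumps protons across the inner mitochondrial membrane, and complex V, the ATP synthase, uses the returning protons to make ATP. Complexes I, III, IV and V join subunits encoded in mitochondrial DNA with subunits encoded in the nucleus, while every subunit of complex II and cytochrome c are nuclear. The nuclear genes lie scattered over the chromosomes and are used in nearly all cells, except for isoforms that are kept for muscle, lung, testis or low oxygen. Many of their promoters are known targets of NRF1, of ETS factors such as GABP, and of YY1.

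The series holds 2 ATAC-seq libraries of prostate tumor cells from C57BL/6 mice on the way to neuroendocrine prostate cancer (NEPC). M6 is the late stage, after 6 months of tamoxifen, and W2 is the early stage, after 2 weeks. Tamoxifen was given in both. The sources used here do not give its target allele, any transgene with its promoter, the age of the mice, or whether the cells came directly from tumors or from culture. With 1 library at each time point no difference between M6 and W2 has a replicate check, no test was made, and all intervals cover counting error only.

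The peak lists were of unequal length, with 22570 peaks in M6 and 5735 in W2 on chromosomes 1 to 19, X and Y. The sources used here do not give the number of reads. The lowest local background, recovered from the statistics of the peaks, was 2.65 tags in M6 and 2.96 tags in W2, a ratio of 0.895. Gene-end peaks were present at 3 of 12 prostate epithelial markers in M6 (Cdh1, Epcam and Krt8) and at 2 in W2 (Cdh1 and Epcam), while the prostate genes Hoxb13 and Foxa1 had none in either library. Of 10 neuroendocrine markers, 5 had one in M6 (Chgb, Eno2, Ncam1, Scg2 and Uchl1) and 0 in W2. All 6 leukocyte, 5 endothelial, 6 fibroblast and 4 smooth muscle markers were without a gene-end peak in both libraries. An ATAC-seq peak list of bulk cells cannot tell a more open site from a larger share of cells in which it is open.

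Most respiratory chain genes had an accessible gene end in M6, and every respiratory chain gene with a peak in W2 also had one in M6. Over all protein-coding genes, 3891 of the 4033 with a W2 peak also had one in M6. A gene-end peak was present in M6 at 76 of the 106 (71.7%, exact Clopper-Pearson 95% interval 62.1 to 80.0%), where 39.7% of all protein-coding genes had one. In W2 the count was 38 (35.8%, 26.8 to 45.7%), where 18.4% of all genes had one. Peaks in both libraries were found at 38 genes (17.8% of all genes), peaks in M6 only at 38 (21.9% of all genes), peaks in W2 only at 0 (0.649% of all genes, with 3.42% as the upper limit for these genes), and 30 genes (28.3%, 20.0 to 37.9%) had a peak in neither library (59.7% of all genes). A W2 peak was thus found at 38 of the 76 genes with an M6 peak (interval 38.3 to 61.7%), near the 44.8% of all genes with an M6 peak.

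The order of these counts changed when both lists had the same length. When the M6 list was shortened to the 5735 peaks with the highest −log10 q, the lowest of which was 10.8, 30 genes had a gene-end peak in M6 and 38 in W2, the reverse of the order over all peaks. After the same shortening, 16.5% of all genes had one in M6, against 18.4% in W2. In this setting 23 respiratory chain genes had a peak in both libraries (12.4% of all genes), 7 in M6 only (4.05% of all genes), 15 in W2 only (6.01% of all genes) and 61 in neither (77.5% of all genes). The 7 were Ndufa11, Ndufb9, Uqcrfs1, Cox19, Atp5c1, Atp5h and Atp5md, and the 15 included Ndufb5, Sdhc, Uqcrb, Uqcrc2, Cox10, Cox14, Atp5g2 and Atp5j.

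**Figure D1:**
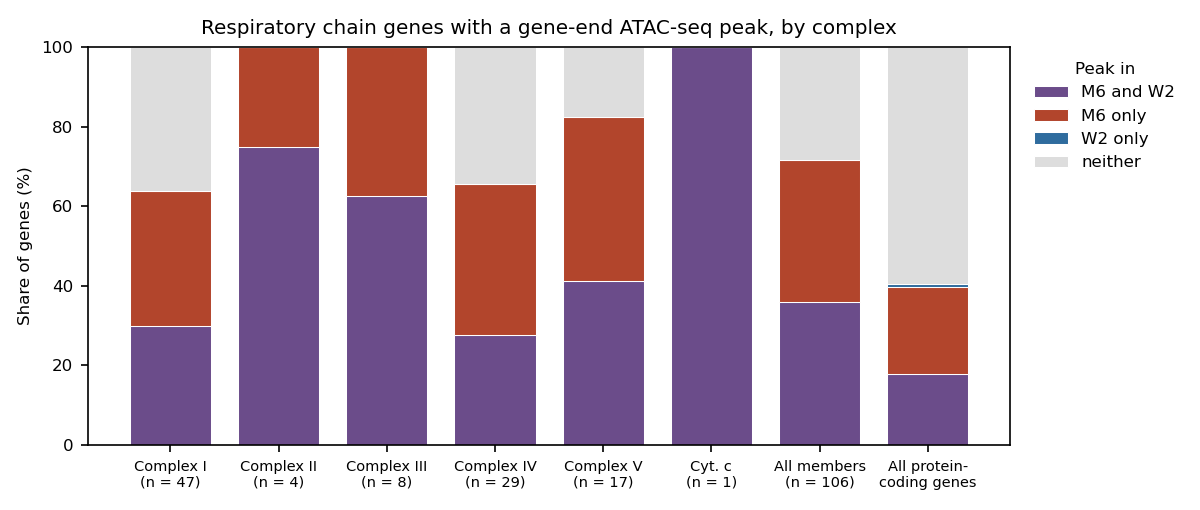
Share of genes (%, vertical axis) with a gene-end peak in both M6 and W2, in M6 only, in W2 only or in neither library, for each complex, for all 106 respiratory chain genes and for all protein-coding genes. Over all deposited peaks, complexes II and III and cytochrome c have an M6 peak at every gene, and complexes I and IV at 63.8% and 65.5%. No respiratory chain gene has a peak in W2 only. These shares depend on list length: with equal lists by −log10 q, complexes I to IV have fewer genes with an M6 peak than with a W2 peak.

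The promoters of the member with the highest M6 −log10 q in each complex are shown first, together with those of Cox6b2 and Cox7b2, subunit isoforms of testis, and Cox8b, an isoform of heart and skeletal muscle, none of which had a peak, for contrast. For complex III the promoter shown is that of Uqcrc1, the member with the highest −log10 q that has a promoter entry. The sequences are 300 bases each from RefSeq on GRCm38.p6, from 250 bases before to 50 bases after the annotated start, written in the direction of the gene. Capitals mark matches, on either strand, to the letters GCGCANGCG (NRF1), CCGGAAG (ETS factors), AAGATGG (YY1), GGGCGG (SP/KLF factors), CCAAT (NF-Y) or TCAAGGTCA (ERR). They lie at chr19:4012706-4013005 (minus strand) for Ndufv1, chr4:140961021-140961320 (plus) for Sdhb, chr9:108936398-108936697 (plus) for Uqcrc1, chr19:7217567-7217866 (minus) for Cox8a, chr11:96075582-96075881 (minus) for Atp5g1, chr6:50566520-50566819 (minus) for Cycs, chr7:4753045-4753344 (minus) for Cox6b2, chr5:71548156-71548455 (minus) for Cox7b2 and chr7:140900397-140900696 (minus) for Cox8b.
Ndufv1: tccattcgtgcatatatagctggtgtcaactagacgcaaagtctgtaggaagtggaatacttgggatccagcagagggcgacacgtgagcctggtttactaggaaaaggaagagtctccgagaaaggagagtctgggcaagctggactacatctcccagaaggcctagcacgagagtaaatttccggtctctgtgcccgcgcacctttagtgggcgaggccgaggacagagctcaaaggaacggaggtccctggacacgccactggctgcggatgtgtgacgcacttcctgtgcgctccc
Sdhb: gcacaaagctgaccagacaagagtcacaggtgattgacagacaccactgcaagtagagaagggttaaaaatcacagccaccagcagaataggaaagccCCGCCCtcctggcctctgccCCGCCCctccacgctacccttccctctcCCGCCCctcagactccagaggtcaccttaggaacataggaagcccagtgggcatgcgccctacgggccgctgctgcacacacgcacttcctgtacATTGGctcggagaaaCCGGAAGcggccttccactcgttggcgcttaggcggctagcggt
Uqcrc1: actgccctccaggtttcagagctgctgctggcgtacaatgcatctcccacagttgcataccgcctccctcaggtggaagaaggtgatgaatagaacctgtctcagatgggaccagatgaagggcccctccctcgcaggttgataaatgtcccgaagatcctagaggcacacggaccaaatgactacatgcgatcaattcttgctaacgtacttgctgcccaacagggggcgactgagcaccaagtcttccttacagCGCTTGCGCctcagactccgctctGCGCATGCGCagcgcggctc
Cox8a: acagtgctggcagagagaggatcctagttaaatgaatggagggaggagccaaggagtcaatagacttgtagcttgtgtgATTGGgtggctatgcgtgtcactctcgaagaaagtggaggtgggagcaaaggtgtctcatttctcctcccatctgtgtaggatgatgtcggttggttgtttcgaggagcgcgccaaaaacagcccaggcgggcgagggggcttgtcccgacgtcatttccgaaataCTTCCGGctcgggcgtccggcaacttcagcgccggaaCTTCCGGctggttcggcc
Atp5g1: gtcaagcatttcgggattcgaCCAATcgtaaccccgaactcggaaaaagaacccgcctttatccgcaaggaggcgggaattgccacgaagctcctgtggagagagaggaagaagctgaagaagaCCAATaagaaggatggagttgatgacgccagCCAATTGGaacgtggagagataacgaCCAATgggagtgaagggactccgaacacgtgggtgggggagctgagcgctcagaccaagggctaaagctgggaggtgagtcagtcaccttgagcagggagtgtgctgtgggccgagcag
Cycs: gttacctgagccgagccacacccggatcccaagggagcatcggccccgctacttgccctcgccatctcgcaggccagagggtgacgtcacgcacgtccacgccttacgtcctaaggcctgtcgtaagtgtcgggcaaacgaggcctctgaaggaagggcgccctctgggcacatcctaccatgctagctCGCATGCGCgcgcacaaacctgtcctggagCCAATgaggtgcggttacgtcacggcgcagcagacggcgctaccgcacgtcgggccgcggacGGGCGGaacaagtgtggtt
Cox6b2: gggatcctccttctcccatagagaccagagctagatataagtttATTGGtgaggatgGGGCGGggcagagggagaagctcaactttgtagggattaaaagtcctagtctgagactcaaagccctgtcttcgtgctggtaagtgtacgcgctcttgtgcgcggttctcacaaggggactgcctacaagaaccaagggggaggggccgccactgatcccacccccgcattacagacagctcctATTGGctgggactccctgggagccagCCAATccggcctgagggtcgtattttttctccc
Cox7b2: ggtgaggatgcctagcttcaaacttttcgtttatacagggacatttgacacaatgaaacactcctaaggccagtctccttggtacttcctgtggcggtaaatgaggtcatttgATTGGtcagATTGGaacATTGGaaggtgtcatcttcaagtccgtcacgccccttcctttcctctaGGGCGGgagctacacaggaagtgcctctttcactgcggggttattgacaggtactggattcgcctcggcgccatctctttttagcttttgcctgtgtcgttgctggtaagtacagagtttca
Cox8b: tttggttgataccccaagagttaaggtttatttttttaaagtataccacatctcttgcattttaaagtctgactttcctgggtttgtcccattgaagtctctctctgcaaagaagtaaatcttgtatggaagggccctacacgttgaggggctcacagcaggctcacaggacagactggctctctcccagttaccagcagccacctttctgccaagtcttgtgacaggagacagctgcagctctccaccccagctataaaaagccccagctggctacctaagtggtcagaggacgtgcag

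These promoters differ in the letters they hold. Counted from base 1 of each sequence, Uqcrc1 has NRF1 matches from bases 257, 281 and 282, the last pair on opposite strands and overlapping. Cox8a has ETS matches from bases 246 and 283, and Sdhb has an ETS match from base 257 with NF-Y and SP/KLF matches before it. Cycs has an NRF1 match from base 190, an NF-Y match from base 220 and an SP/KLF match from base 282. Atp5g1 holds 5 NF-Y matches, of which those from bases 156 and 159 overlap on opposite strands. Cox6b2 and Cox7b2, without peaks, each hold 3 NF-Y matches and 1 SP/KLF match, and Ndufv1, with peaks, and Cox8b, without, hold none of the 6 patterns. The observed number of CpG pairs over the number its base content gives was 0.697 in the Ndufv1 promoter. Without peaks, it was 0.432 for Cox6b2, 0.564 for Cox7b2 and 0.115 for Cox8b. With peaks, it was 0.571 for Sdhb, 0.637 for Uqcrc1, 0.744 for Atp5g1 and 0.842 for Cox8a, and highest for Cycs. Sdhb was thus close to Cox7b2. Cox7a1, a heart and muscle isoform with peaks in both libraries and a promoter not printed here, had 0.333. That value was below those of Cox6b2 and Cox7b2.

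Complex I, which takes electrons from NADH, had a gene-end peak at 30 of 47 genes in M6 (63.8%) and at 14 in W2 (29.8%). The shares of all protein-coding genes were 39.7% in M6 and 18.4% in W2. The W2 interval of complex I, 17.3 to 44.9%, includes the share of all genes. All 14 W2 genes were among the 30, which left 16 genes with a peak in M6 only and 17 without a peak in either list. The 7 core subunits carry the flavin, the iron-sulfur clusters and the quinone site. Ndufv1, which binds NADH and the flavin, and Ndufs8, an iron-sulfur subunit, had a peak in both libraries. Ndufv2, an iron-sulfur subunit, and Ndufs3, a subunit of the arm that leads to the quinone site, had a peak in M6 only. Ndufs1 and Ndufs7, iron-sulfur subunits, had none, with the nearest peak to an end of Ndufs1 at 4.28 kb in M6 and 745 kb in W2, and the nearest to Ndufs7 at 4.04 kb in M6 and 4.42 kb in W2.

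Ndufv1 had the strongest M6 peak of the complex. Its peak at chr19:4012596-4012993 in M6 had a summit pileup (tags covering the summit) of 39, a fold over local background of 8.06 and a −log10 q of 21.3. In W2 the peak at chr19:4012601-4013003 had a pileup of 26, a fold of 5.27 and a −log10 q of 8.88. The pileups give a ratio of M6 over W2 of 1.5 with a counting interval of 0.890 to 2.57. Pileup ratios, here and below, compare raw tags and are not scaled for depth, which is unknown. A ratio of 1 therefore does not mark equal accessibility. Both peaks hold the gene start and most of the promoter printed above. Ndufs8 had a pileup of 40 in M6 and 30 in W2, a ratio of 1.33 (0.810 to 2.22). The M6 peak of Ndufv2 had a pileup of 26 and a −log10 q of 9.11, and that of Ndufs3 had a pileup of 19 and a −log10 q of 6.50. Neither of these had a W2 gene-end peak.

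The 8 assembly factors of complex I, which build the enzyme and are not part of it, had a peak at 7 genes in M6 and at 5 in W2. These are 87.5% and 62.5%, beside 39.7% and 18.4% of all protein-coding genes. Ndufaf8, a small protein that stabilises Ndufaf5, had the strongest peak among them (chr11:120098604-120099067 in M6, chr11:120098617-120099007 in W2). Its pileup was 43 in M6 and 25 in W2, with a −log10 q of 19.7 in M6 and 8.66 in W2 and a pileup ratio of 1.72 (1.03 to 2.94). Ndufaf7, an arginine methyltransferase, had a pileup of 37 in M6 and 21 in W2. Ndufaf2 had 35 in M6 and 19 in W2, Ndufaf3 had 35 in M6 and 16 in W2, and Ndufaf5, which hydroxylates Ndufs7, had 20 in M6 and 18 in W2. Ndufaf4 and Ndufaf6 had peaks in M6 only (−log10 q of 6.95 and 4.78) and Ndufaf1 had none. At Ndufaf3 the local background was 8.02 tags in M6 and 3.70 tags in W2, and the deposited fold was 3.99 in M6 and 3.62 in W2. Its pileup ratio of 2.19 (1.18 to 4.23) was the highest of the respiratory chain genes with both peaks, and the part of the background in it was not tested. The M6 summit, at base 108567135 of chr9, lay outside the W2 peak (108567373-108567572). This ratio thus sets different positions side by side.

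The 30 accessory subunits of complex I had a peak at 19 genes in M6 and 7 in W2. These are 63.3% and 23.3% (9.93 to 42.3%), beside 39.7% and 18.4% of all protein-coding genes. The 7 with both peaks were Ndufa2, Ndufa5, Ndufa6, Ndufa12, Ndufb5, Ndufb6 and Ndufv3, with pileups of 18 to 35 in M6 and 13 to 33 in W2. Ndufb5, a subunit of the membrane arm, was the only one with the higher pileup in W2, at 26 in M6 and 33 in W2 (−log10 q of 8.55 in M6 and 14.7 in W2). Its ratio of 0.788 had a counting interval of 0.453 to 1.36, so the counts did not resolve which library had more raw tags there. Of the 12 with a peak in M6 only, Ndufa11, a membrane-arm subunit, had the strongest (pileup 39, −log10 q 13.3, chr17:56716859-56717578). That summit lay at −743 bp from the start of Ndufa11 (negative before the start) and the peak also touched an end of Vmac. Ndufb9, a subunit of the LYR protein family, followed (pileup 29, −log10 q 11.2, chr15:58933594-58933862), in a peak that also touched an end of Tatdn1.

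The other 10 accessory subunits with a peak in M6 only had a −log10 q between 3.89 at Ndufb8 and 9.35 at Ndufb2, and were Ndufa8, Ndufa10, Ndufb1, Ndufb2, Ndufb3, Ndufb4, Ndufb7, Ndufb8, Ndufb11 and Ndufc2. The accessory subunits without a gene-end peak in either library were Ndufa1, Ndufa3, Ndufa7, Ndufa9, Ndufa13, Ndufab1 (also the acyl carrier protein of mitochondria), Ndufb10, Ndufc1, Ndufs4, Ndufs5 and Ndufs6. For Ndufs4, whose loss gives mice a fatal brain disease, the nearest peak to a gene end was 345 kb away in both libraries. For Ndufb10 it was 1.87 kb away in M6 and 12.0 kb in W2. Ndufb4b and Ndufb4c, gene copies of Ndufb4, had no gene-end peak.

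Complex II, succinate dehydrogenase, links the tricarboxylic acid cycle to the chain and had a peak at all 4 genes in M6 and at 3 in W2. Of all protein-coding genes 39.7% had one in M6 and 18.4% in W2. Sdhb, the iron-sulfur subunit, had a pileup of 40 in M6 and 28 in W2, a −log10 q of 19.3 in M6 and 10.4 in W2, and a ratio of 1.43 (0.860 to 2.40). Its peaks (chr4:140961100-140961583 in M6, chr4:140960961-140961418 in W2) held the gene start with its ETS match. Sdhc, a membrane anchor, had 22 tags in M6 and 25 in W2, a ratio of 0.880 (0.473 to 1.63). Sdhd, the other membrane anchor, had a start peak in both libraries, with 21 tags in M6 and 15 in W2, a ratio of 1.4 (0.688 to 2.92). A stronger M6 peak of 31 tags (−log10 q 13.7) lay at its other end, with a summit 8697 bp past the start, so the Sdhd pileup ratio over strongest peaks, 2.07, sets different sites side by side. Sdha, the flavin subunit, had a peak in M6 only, with 22 tags and a −log10 q of 8.81. This peak (chr13:74349887-74350473) is shared with an end of Ccdc127.

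Complex III passes electrons from ubiquinol to cytochrome c, and all 8 genes had a peak in M6 and 5 in W2. The shares of all protein-coding genes were 39.7% in M6 and 18.4% in W2. Uqcrq, a small subunit, had the strongest peaks of the complex, with 53 tags in M6 (chr11:53430688-53431383, −log10 q 27.1) and 32 in W2 (chr11:53430872-53431409, −log10 q 13.6), a ratio of 1.66 (1.05 to 2.65). The peak also touched an end of Gdf9, which encodes an oocyte growth factor. Uqcrc1, a core protein of the matrix side, had 30 tags in M6 and 18 in W2, a ratio of 1.67 (0.899 to 3.17). Its M6 peak was 618 bp wide and its W2 peak 265 bp, and both hold the NRF1 matches in the sequence above. Uqcr10 had 25 tags in M6 and 19 in W2, Uqcrc2 had 24 in M6 and 19 in W2, and Uqcrb, which helps form the quinone site, had 18 in M6 and 21 in W2. Those with a peak in M6 only were Uqcrfs1, the Rieske iron-sulfur protein (30 tags, −log10 q 11.6), Uqcr11 (27 tags, 7.75) and Uqcrh, the hinge protein (23 tags, 5.74).

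Complex IV, cytochrome c oxidase, had a peak at 19 of 29 genes in M6 (65.5%) and at 8 in W2 (27.6%). All 10 assembly factors had an M6 peak (interval 69.2 to 100%), 4 of them also a W2 peak. Of the 11 subunits of wide use, counting Ndufa4, 7 had an M6 peak (30.8 to 89.1%) and 3 a W2 peak. Of the 8 isoforms restricted to a tissue or to low oxygen, 2 had an M6 peak (3.19 to 65.1%) and 1 a W2 peak. Only the M6 intervals of assembly factors and restricted isoforms lay apart, and the W2 intervals of all roles overlapped. Over all protein-coding genes 39.7% had a peak in M6 and 18.4% in W2.

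Among the assembly factors, Cox11, which hands copper to the catalytic subunit, had 30 tags in M6 and 21 in W2 (−log10 q of 14.7 in M6 and 7.78 in W2), a ratio of 1.43 (0.791 to 2.63). Cox18, which inserts subunit Cox2 into the membrane, had 31 in M6 and 22 in W2. Cox14, which acts on the making of Cox1, had 31 tags in M6 and 20 in W2. Cox10, which makes heme O, had 18 in both. Its partner in heme A synthesis, Cox15, had a peak in M6 only (−log10 q 6.63), as did Cox19 and Cox17, proteins of copper delivery (11.4 and 5.10), Cox20, a chaperone of Cox2 (9.09), Cox16 (7.74) and Cox7a2l, which joins complexes III and IV into supercomplexes (7.31). The Cox19 peak lay at chr5:139345082-139345437 with 28 tags.

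Among the subunits, Cox8a had the strongest peaks, with 34 tags in M6 (chr19:7217471-7217870, −log10 q 14.8) and 19 in W2 (chr19:7217518-7217866, −log10 q 5.74), a ratio of 1.79 (0.992 to 3.32). Both peaks hold the pair of ETS matches printed above. Ndufa4, first assigned to complex I and now placed in complex IV, had 24 tags in M6 and 16 in W2, and Cox6b1, which faces the intermembrane space, had 16 in M6 and 15 in W2. Cox6a1 (25 tags, −log10 q 10.2, chr5:115348888-115349246), Cox5b, a zinc-binding subunit (9.36), Cox7c (9.27) and Cox4i1, a regulatory subunit (8.35), had a peak in M6 only. Cox5a, Cox6c, Cox7a2 and Cox7b lacked a gene-end peak in M6 and in W2. Without Ndufa4, the counts of these widely used subunits were 6 of 10 in M6 and 2 in W2.

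Of the 8 restricted isoforms, 25% had a peak in M6 (3.19 to 65.1%) and 12.5% in W2 (0.316 to 52.7%). Both intervals include the share of all protein-coding genes, 39.7% in M6 and 18.4% in W2. Cox7a1, the heart and muscle form of Cox7a2, had a peak of 16 tags in both libraries (chr7:30183950-30184273 in M6, chr7:30183997-30184282 in W2), with a −log10 q of 4.75 in M6 and 4.08 in W2. Ndufa4l2, a relative of Ndufa4 that is induced in low oxygen, had 29 tags in M6 only (−log10 q 6.59), in a peak (chr10:127509011-127509492) that also touched an end of Stac3. Cox4i2, the form of lung and low oxygen, Cox6a2 and Cox8b of muscle, and Cox6b2, Cox7b2 and Cox8c of testis had no gene-end peak. These last 6 also had no peak of either library within the gene and 10 kb on either side.

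Complex V had a peak at 14 of 17 genes in M6 (82.4%) and at 7 in W2 (41.2%), beside 39.7% and 18.4% of all protein-coding genes. The c-ring, the rotor that protons drive, is encoded by 3 genes whose mature proteins are the same. By −log10 q, Atp5g1 had the strongest peaks of all respiratory chain genes in both libraries, with 58 tags in M6 (chr11:96075196-96076199, −log10 q 34.1) and 33 in W2 (chr11:96075552-96076160, −log10 q 15.5). Its pileup ratio was 1.76 (1.13 to 2.78), and the peak ranked 131 in the M6 list and 212 in the W2 list by −log10 q. Atp5g2 had 24 tags in M6 and 26 in W2. Atp5g3 had no gene-end peak, with the nearest M6 peak 1.12 kb and the nearest W2 peak 15.4 kb from an end.

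The alpha, beta, gamma, delta and epsilon subunits of complex V had M6 peaks at 4 of 5 genes and W2 peaks at 2. The intervals, 28.4 to 99.5% in M6 and 5.27 to 85.3% in W2, include the 39.7% and 18.4% of all genes. Atp5b, the catalytic beta subunit, had 40 tags in M6 and 25 in W2. Atp5e, the epsilon subunit, had 36 in M6 and 30 in W2 (−log10 q of 19.4 in M6 and 13.2 in W2), a ratio of 1.20 (0.719 to 2.02), in a peak that also touched an end of Prelid3b. Atp5c1, the gamma subunit, had a peak in M6 only (31 tags, −log10 q 11.7, chr2:10080129-10080798, also at an end of Kin). The M6 peak of Atp5a1, the alpha subunit, was the weakest of all members by −log10 q (15 tags, 2.77), and Atp5d, the delta subunit, had no gene-end peak.

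In the peripheral stalk and the membrane part of complex V, 3 further genes had peaks in both libraries. Atp5pb of the stalk had 33 tags in M6 and 21 in W2, Atp5j of the stalk had 30 in M6 and 24 in W2, and Atp5k of the membrane part had 28 in M6 and 16 in W2. The Atp5j peak is also the peak of Gabpa, the DNA-binding subunit of GABP, and its summit lay 720 bp past the Atp5j start in M6 and 554 bp past it in W2. Genes with a peak in M6 only were Atp5md, a small membrane subunit (31 tags, −log10 q 14.3, chr19:47090170-47090962, also at an end of Pdcd11), Atp5h (11.4) and Atp5o (5.40) of the stalk, and Atp5mpl (7.27) and Atp5j2 (4.82) of the membrane part. Atp5l, the g subunit, had none.

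Cycs encodes cytochrome c, the carrier between complexes III and IV, which also triggers apoptosis when released. It had 41 tags in M6 (chr6:50566371-50566858) and 25 in W2 (chr6:50566550-50566942), a ratio of 1.64 (0.974 to 2.81). The −log10 q was 27.3 in M6 and 10.8 in W2. The M6 fold over local background, 10.4, was the highest among the members, against 6.47 in W2. Both peaks hold the NRF1 match printed above.

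At the 38 genes with a peak in both libraries the M6 summit was the higher at 32, equal at 2 (Cox10 and Cox7a1) and lower at 4 (Ndufb5, Sdhc, Uqcrb and Atp5g2). The median pileup was 30.5 tags in M6 and 21 in W2. The median log2 ratio of M6 over W2 was 0.51 (quartiles 0.33 and 0.74, range −0.34 to 1.13), beside 0.58 over the 3891 protein-coding genes with both peaks, of which 89.9% were higher in M6. Where the strongest peaks of both libraries overlapped, which leaves out Sdhd, the counting interval of the ratio lay above 1 at 7 of 37 genes (18.9%), Ndufa6, Ndufaf2, Ndufaf3, Ndufaf7, Ndufaf8, Uqcrq and Atp5g1, and below 1 at 0. Over all genes with overlapping peaks it lay above 1 at 1135 of 3762 (30.2%) and below 1 at 0. At Ndufaf3 the peaks overlapped, but the M6 summit lay outside the W2 peak. On the deposited fold, which divides by the local background, the median log2 ratio was 0.30, with 31 genes higher in M6 and 7 lower, and over all genes it was 0.27.

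**Figure D2:**
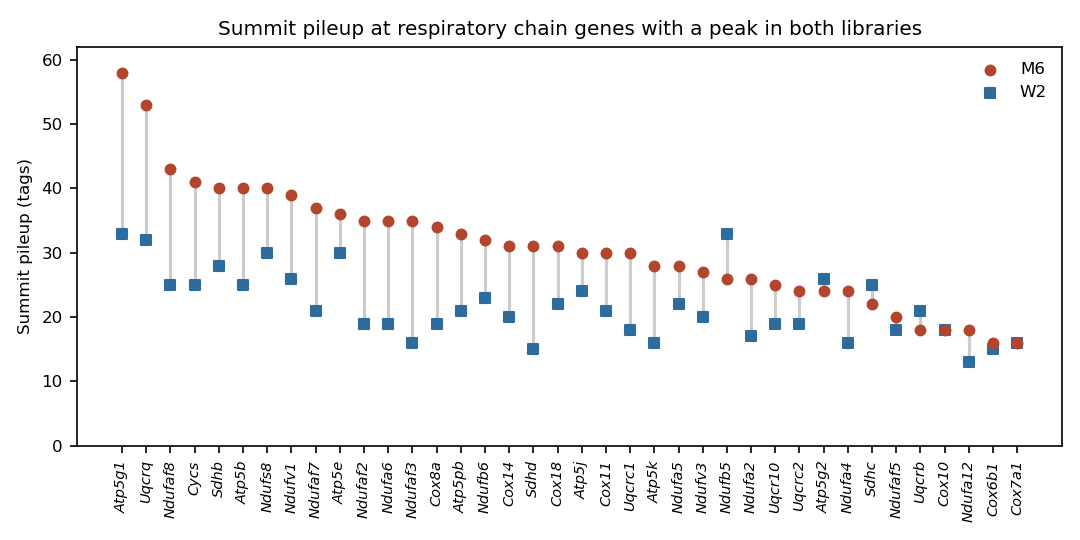
Summit pileup (tags, vertical axis) in M6 (circles) and W2 (squares) of the strongest gene-end peak at the 38 respiratory chain genes with a peak in both libraries, ordered by the M6 value, with 1 library each and no error bars. M6 lies above W2 at 32 genes, from Atp5g1 with 58 and 33 tags downward, and below W2 at Ndufb5, Atp5g2, Sdhc and Uqcrb. The values of Sdhd are from different sites, and at Ndufaf3, Ndufa12 and Cox6b1 the M6 summit lies outside the W2 peak.

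Genes with a peak in M6 only had weaker M6 peaks than genes with peaks in both. The median M6 −log10 q was 7.73 at the 38 genes with a peak in M6 only and 12.2 at the 38 with both, and over all genes the medians were 6.68 and 14.6. By classes chosen after the values were seen, a W2 peak accompanied 2 of 13 M6 peaks with a −log10 q under 6 (15.4%), 10 of 29 between 6 and 10 (34.5%), 13 of 21 between 10 and 15 (61.9%) and 13 of 13 from 15 upward (100%, 75.3 to 100%). Over all genes these shares were 13.0%, 29.6%, 56.1% and 86.7%. The strongest respiratory chain peaks without a W2 counterpart, at Atp5md, Ndufa11, Atp5c1, Uqcrfs1, Atp5h, Cox19 and Ndufb9, lay between 11.2 and 14.3.

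**Figure D3:**
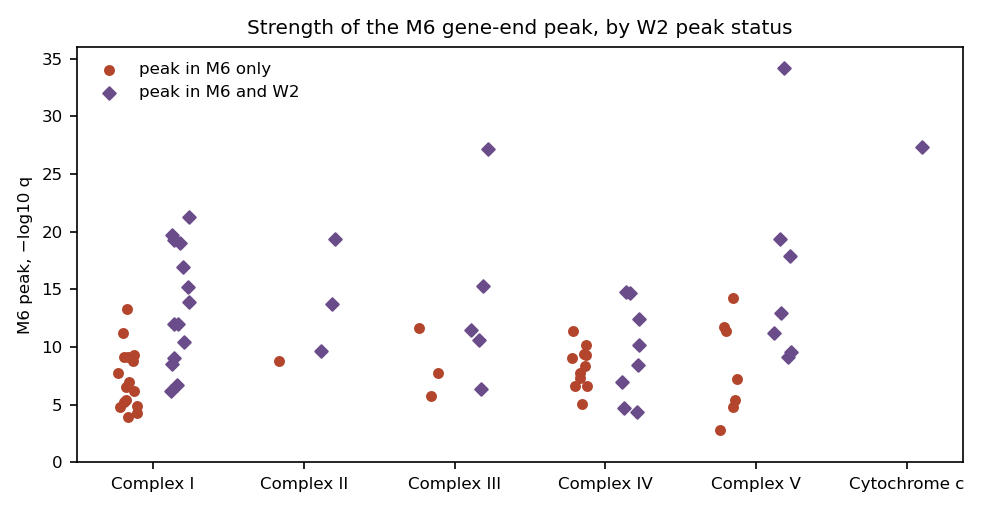
The −log10 q of the strongest M6 gene-end peak (vertical axis) of each respiratory chain gene, by complex, for genes with a peak in M6 only (circles) and in both M6 and W2 (diamonds). Every gene with an M6 −log10 q of 15 or more also has a W2 peak, and the strongest gene with a peak in M6 only is Atp5md at 14.3.

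The peaks sat at gene starts. An annotated start with strand was known for 63 of the 76 genes with an M6 peak and 32 of the 38 with a W2 peak. The strongest peak contained that start at 51 genes in M6 and 27 in W2. Its summit lay within 250 bp of the start at 49 genes in M6 and 27 in W2, with a median position of −67 bp in M6 and −56.5 bp in W2. In M6 the strongest peak lay at the other end of the gene at 3 genes, Ndufc2 (7258 bp past the start), Ndufb6 (9531 bp, at ends of Smim27 and Topors) and Sdhd, and in W2 at Ndufb6.

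**Figure D4:**
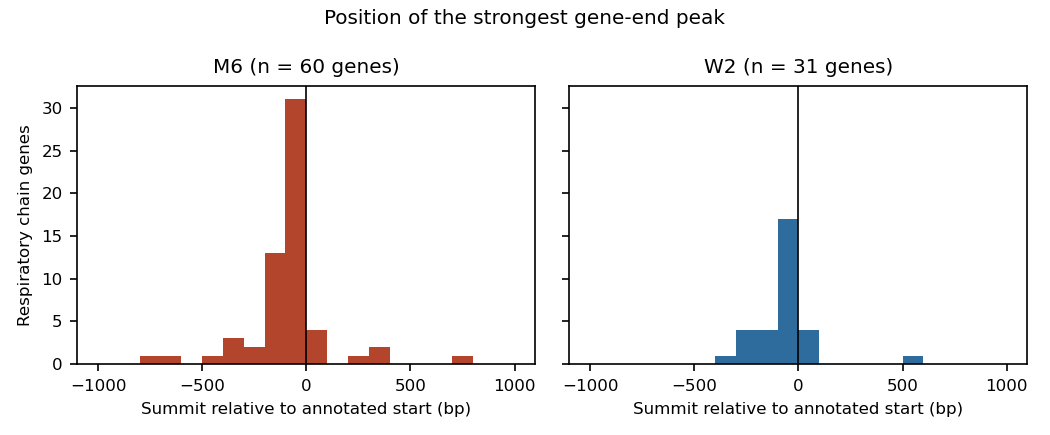
Number of respiratory chain genes (vertical axis) by position of the summit of their strongest gene-end peak relative to the annotated start (bp, horizontal axis, 100 bp bins, negative before the start), for M6 (left, 60 genes) and W2 (right, 31 genes). Summits more than 1 kb away are not drawn, and the highest bin of both libraries is the 100 bp before the start.

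Many of these genes have an end close to that of a neighbour, and a peak there cannot be assigned to either gene. The strongest peak also touched an end of another protein-coding gene at 37 of 76 genes in M6 (48.7%) and 22 of 38 in W2 (57.9%), beside 28.8% and 34.4% for all genes with a peak. In a split chosen after the values were seen, 64 respiratory chain genes had an end near that of another gene, and 78.1% of these had a peak in M6 and 45.3% in W2. Of all genes so placed, 58.0% had one in M6 and 30.1% in W2. The 42 respiratory chain genes that stood apart had a peak in 61.9% of cases in M6 and 21.4% in W2, where all such genes had 31.0% and 12.9%. No peak was shared by 2 respiratory chain genes. Shared sites included those of Ndufb5 with Mrpl47, a protein of the mitochondrial ribosome, of Ndufaf7 with Cebpz and of Cox11 with Stxbp4, beside Atp5j with Gabpa.

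Promoter sequence was given for 86 of the 106 genes. Their promoters were richer in CpG pairs than promoters at large, with a median observed over expected of 0.831 against 0.577 for 17492 genes, at a GC content of 58.8% against 56.3%. With a limit of 0.6, set after the values were seen, 72 of the 86 (83.7%) were CpG-rich, against 48.4% of all. At CpG-rich promoters 55 of 72 respiratory chain genes had a peak in M6 (76.4%, 64.9 to 85.6%) and 29 in W2 (40.3%, 28.9 to 52.5%), and all CpG-rich genes had one in 66.4% in M6 and 33.1% in W2. The distance to all genes was thus smaller among CpG-rich promoters than over all 106 genes. At the 14 CpG-poor promoters the counts were 8 in M6 and 3 in W2, or 57.1% and 21.4%, beside 16.5% and 6.49% of all CpG-poor genes.

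NRF1, ETS and YY1 letters had higher shares in these promoters than in promoters at large. NRF1 letters occurred in 22 of 86 promoters (25.6%, against 8.87% of all), ETS letters in 23 (26.7%, against 11.9%) and YY1 letters in 13 (15.1%, against 6.35%). SP/KLF letters occurred in 41 (47.7%, against 46.3%), NF-Y letters in 37 (43%, against 39.2%) and ERR letters in 2, Sdhd and Atp5g3 (2.33%, against 0.332%). Among CpG-rich promoters alone the shares were 30.6% (20.2 to 42.5%) against 17.1% for NRF1 and 15.3% (7.88 to 25.7%) against 7.19% for YY1. For ETS they were 27.8% (17.9 to 39.6%) against 19.9%, so the counts did not resolve an ETS difference there. For SP/KLF they were 51.4% (39.31 to 63.35%) against 74.1%, so that SP/KLF letters were the less frequent in respiratory chain genes.

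**Figure D5:**
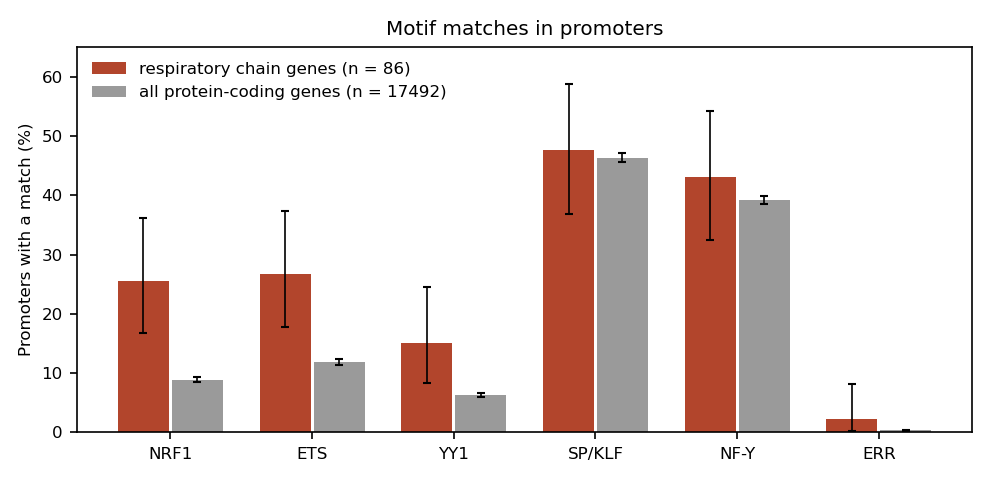
Share of promoters (%, vertical axis) holding at least 1 match to each set of letters, for 86 respiratory chain genes (left bar) and 17492 protein-coding genes (right bar), with exact 95% intervals that cover counting error only. NRF1, ETS and YY1 letters stand at 25.6%, 26.7% and 15.1% in respiratory chain genes against 8.87%, 11.9% and 6.35% in all genes.

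By peak class, ETS letters were found in 11 of 32 promoters of respiratory chain genes with a peak in both libraries, 10 of 31 with a peak in M6 only and 2 of 23 with a peak in neither, Atp5l and Ndufaf1. Over all genes of these classes ETS letters were in 22.2% of promoters with both peaks, 18.6% with an M6 peak only and 6.12% with neither. For NRF1 the counts were 8, 9 and 5, beside 16.0%, 16.0% and 3.91% of all genes of these classes, and for YY1 they were 3, 4 and 6, beside 7.80%, 7.13% and 5.61%. The 6 promoters with YY1 letters and no peak were those of Ndufa3, Ndufa9, Ndufc1, Ndufs4, Ndufs6 and Ndufs7, all of complex I. Complex I also holds 17 of the 30 respiratory chain genes with a peak in neither library. A match gives letters only and does not show that a factor was bound, and these counts are too small to order the classes.

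Genes that serve the chain but fall outside the naming rule were counted in the same way, against the 39.7% of all genes in M6 and 18.4% in W2. Of 33 further assembly factors and chain genes, 25 had a gene-end peak in M6 and 11 in W2, with Coa3 as the only one with a peak in W2 only. Foxred1, an assembly factor of complex I, had 57 tags in M6 and 32 in W2, while Cyc1, the cytochrome c1 of complex III, had 26 tags in M6 only. Of 17 regulators of nuclear respiratory genes and of mitochondrial DNA, 14 had a peak in M6 and 9 in W2. Esrra, the estrogen-related receptor alpha, had 42 tags in M6 and 28 in W2, and Nrf1 and Ppargc1a, the coactivator PGC-1alpha, had peaks in M6 only. In the tricarboxylic acid cycle the counts were 16 of 19 in M6 and 8 in W2, in the mitochondrial ribosome 50 of 78 in M6 and 24 in W2, and in glycolysis 13 of 20 in M6 and 7 in W2.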

How the data were processed

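ATAC-seq peaks of 1 M6 and 1 W2 library were read as deposited, called per library with nothing pooled. The submitters' processing notes name build mm10 and the tools Bowtie2, deepTools, SAMtools 1.4 and Trim Galore 0.5.0. The sources used here do not give the peak caller, its threshold, duplicate handling or any shift of read ends. Each peak carries a score, a linear fold (ratio) of summit over local background, a −log10 p and a −log10 q, all computed by the authors before they were deposited. The score was not used. These values are the authors' own. Ranks and limits were read within a list, and the fold was also set side by side between the lists. Any peak touching 1 kb around a gene end by at least 1 bp counted, and the peak with the highest −log10 q stood for the gene.

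The whole-number pileup at each summit was recovered from the deposited fold, taken as (pileup + 1)/(background + 1), and the −log10 p of a Poisson tail. It was found for 100% of peaks within 0.001 of the deposited −log10 p, and for 100% of 1000 simulated peaks. The lowest pileup was 10 tags in M6 and 12 in W2, so sites with fewer tags lie outside the lists, and depth is otherwise unknown. Left out were 24 peaks in M6 and 30 in W2 on other sequences. Gene positions and promoters came from RefSeq GRCm38.p6, the assembly of mm10. The gene table gives no strand, and 20 members without a promoter entry were not placed on a strand. Exact binomial intervals (95%) were computed with Python 3.11.15, numpy 2.4.6, pandas 2.3.3 and scipy 1.17.1, and pileup ratios were given the exact interval of a ratio of counts.

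The members, gene lists and roles were chosen with earlier results of these data known. Genes with full values are the 2 strongest M6 peaks per complex among genes with both peaks and among genes with an M6 peak only, the Sdh genes, Cycs, the complex I core and the restricted isoforms; other members are named with fewer values. Values of some genes are not reported here.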

Additional observations from a re-analysis of the deposited data

How the results depend on the processing

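With an equal number of peaks (5735 per list) by −log10 q, members with a gene-end peak numbered 30 in M6 and 38 in W2, with 23 in both, 7 in M6 only, 15 in W2 only and 61 in neither. By fold these were 26 in M6 and 38 in W2, with 22 in both, 4 in M6 only, 16 in W2 only and 64 in neither. By complex, the −log10 q setting gave M6 peaks at 11 genes of complex I, 2 of II, 4 of III, 4 of IV and 8 of V. The W2 counts in the same order were 14, 3, 5, 8 and 7. By construction an equal number keeps fewer M6 peaks and all W2 peaks. Without peaks that touched another gene end the counts were 39 in M6, 16 in W2, 16 in both, 23 in M6 only and 67 in neither, again from fewer peaks. The median log2 ratio was 0.30 with the deposited fold and between 0.51 and 0.67 with the other scales and overlaps. A −log10 q of at least 5, windows of 500 bp and 2 kb, the summit in the window and a pileup of at least 12 gave 68 to 79 members in M6 and 30 to 39 in W2, with 0 in W2 only. The annotated start of the promoter entry alone gave 64 in M6 and 32 in W2 of the 86 members with a promoter entry, where both ends within 1 kb gave 63 in M6 and 32 in W2. No paired analysis was possible because each time point had 1 library. Peaks of fewer than 10 tags in M6 or 12 in W2 are not in the lists, so a member without a peak is one not detected at this depth.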

Other observations

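The genome table holds 20 pseudogenes with symbols of the same families, such as Atp5k-ps1, Uqcrh-ps1 and Cox7c-ps1, which lie outside the naming rule. Gene-end peaks were present at 0 of them in M6 and 0 in W2.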
